A study of Danio rerio with 6 samples.

Results

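The genes described here encode the complement, coagulation and carrier proteins of blood plasma. They were chosen by name, as rows of the expression table whose gene name was 1 of 32 listed names or began with c3a. or c3b. (the zebrafish copies of complement component C3). The rule found 39 of the 39214 genes in the table, namely 21 complement genes, 14 genes of coagulation and fibrinolysis, and 4 carrier or other plasma protein genes. Of the 32 names, 31 had a row, and hpx had none. The name c6 stood on 2 rows with separate identifiers, both of which were included.

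Complement is a cascade of plasma proteins that marks and lyses microbes. Its routes meet at C3, and its terminal components C5 to C9 assemble into a membrane attack complex. Coagulation is a second cascade, started by tissue factor and ending with thrombin, which turns fibrinogen into fibrin, while plasmin later dissolves the clot. Most of these proteins are made by hepatocytes and secreted, and in mammals a part of them, the acute-phase proteins, is raised through IL-6 family cytokines, STAT3 and C/EBP factors during inflammation.

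RNA was sequenced from zebrafish larvae of the AB wild type at 5 dpf, in a group exposed to 4 mg/L Lurasidone and a control group, with 3 libraries in each. Lurasidone is an antipsychotic drug that blocks dopamine and serotonin receptors. The control was a solvent (DMSO) control in the methods and is named only as control in the labels, and the labels start the exposure at 3 hpf while the methods start it at 5 hpf. The methods name both larvae and brain tissue as the RNA source, and liver (fabp10a), pancreas (prss1), red blood cell (hbbe1.1) and muscle (actc1b) genes were measured in every library, at 90.3 FPKM or more. The Lurasidone libraries held 11749887 to 12553624 fragments on genes and the control libraries 12210400 to 15107664, and in both groups the FPKM denominators differed from these totals. The totals were 87.6 to 93.9% of the denominators with Lurasidone, and 98.2, 104 and 84.5% in control replicates 1, 2 and 3. In RNA from whole animals, fewer cells of a type and less RNA per cell cannot be told apart.

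Of 18 complement genes tested, 7 rose (c3a.2, c3a.3, c3b.2, both c6 rows, c7a and cfb) and 0 fell. Of 11 coagulation genes, 2 rose (f3b and fgg) and 0 fell, and of 4 carrier genes, 0 rose and 1 fell (cp). The median log2 fold change was 0.43 for complement, -0.04 for coagulation and -0.32 for carrier genes, beside -0.02 for all 23409 genes tested. It was above 0 in 13 of 18 complement genes, 4 of 11 coagulation genes and 1 of 4 carrier genes, beside 48.4% of all genes. Summed over the 21 complement genes, expression was 293, 295 and 306 FPKM in the Lurasidone libraries, against 208, 224 and 193 FPKM in the control libraries. The sums of the coagulation genes, 395, 343 and 404 FPKM with Lurasidone and 419.6, 506 and 333 FPKM in the controls, overlapped between the groups, as did those of the carrier genes, at 871, 740.1 and 724 FPKM with Lurasidone and 832, 826 and 676 FPKM in the controls.

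A gene was tested if it had at least 0.5 FPKM (fragments per gene length and library size) in at least 3 libraries. The test was limma on log2(FPKM + 1), a scale that understates the change of low genes, with Benjamini-Hochberg adjustment over all tested genes, and a gene "rose" or "fell" at an adjusted p of at most 0.05. Over all genes tested, 5.79% rose and 3.9% fell (9.7% in all), and 38.9% of the complement genes rose, as did 18.2% of the coagulation genes. With a further limit of 1 on the size of the log2 fold change, 5 complement and 2 coagulation genes were up-regulated and 1 carrier gene was down-regulated, beside 2.61% up-regulated and 1.22% down-regulated of all genes. All 3 Lurasidone libraries lay above all 3 control libraries in 10 complement, 3 coagulation and 0 carrier genes (17.1% of all genes tested), and below them in 0, 1 and 1 (16.2% of all). Of the tested complement genes, 3 (c4 and both c6 rows) passed the filter on low values only through the Lurasidone libraries. The filter thus fixed their separation and direction in advance. They are counted among the 10 separate complement genes and the 13 with a log2 fold change above 0. Without them 5 of 15 complement genes rose and the median was 0.30. Leaving out Lurasidone replicate 2 or Lurasidone replicate 3 gave 4 complement genes that rose in each case, partly because the c6 rows then failed the filter. Control replicate 1 was the lowest library for 9 of the 18 tested complement genes, and without it 5 rose. The difference between the classes was not tested, since the members were chosen with results of these data known.

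**Figure D1:**
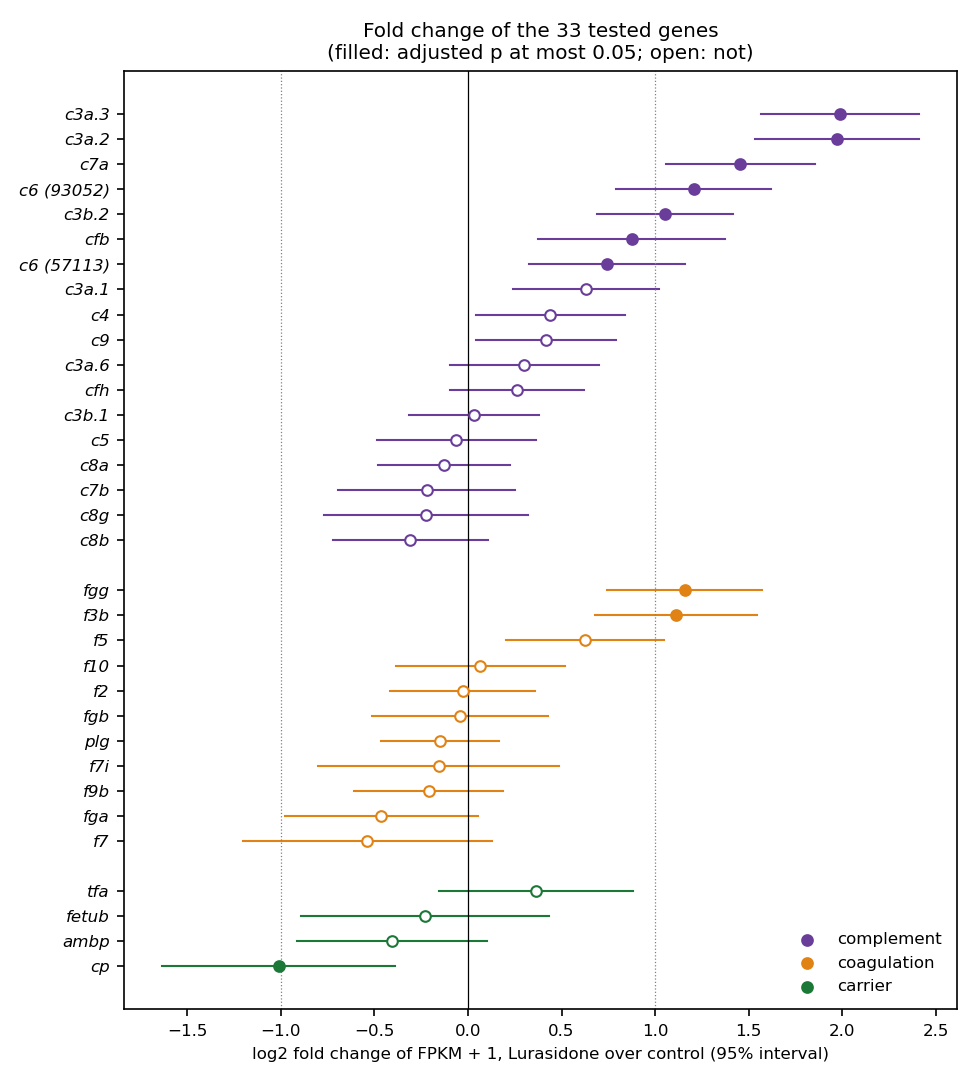
Log2 fold change of FPKM + 1, Lurasidone over control, for the 33 tested genes by class, with the 95% interval of each (3 libraries per group). Filled points passed an adjusted p of 0.05, and they comprise 7 complement and 2 coagulation genes to the right of 0 and 1 carrier gene to the left.

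C3 is the component on which all complement routes meet, and zebrafish carry several C3 genes, c3a.1 to c3a.6 on chromosome 1 and c3b.1 and c3b.2 on chromosome 22. The neighbouring copies c3a.2 and c3a.3 had the largest increases of all members on the log2(FPKM + 1) scale. The ratio of mean FPKM was larger for both c6 rows and for f3a, which were low in the controls, and f3a was not tested. c3a.3 (ENSDARG00000052207, chromosome 1, 56274613 to 56320569, plus strand, GRCz11) was at 11.5, 14.5 and 13.9 FPKM in the Lurasidone libraries, against 2.01, 3.42 and 2.47 FPKM in the control libraries. Its mean was 5.05-fold higher with Lurasidone (13.3 ± 1.61 against 2.63 ± 0.719 FPKM, SD, n = 3 each), a difference of 1.99 on the log2 scale with a standard error of 0.19 and a limma adjusted p of 0.00079. c3a.2 (ENSDARG00000087359, chromosome 1, 56229674 to 56266731, plus strand) was at 11.9, 13.5 and 15.4 FPKM with Lurasidone, against 1.90, 3.35 and 3.04 FPKM in the controls. The groups of both genes were far apart, and the 4.93-fold difference of c3a.2 was 1.97 on the log2 scale (SE 0.20, limma adjusted p = 0.00088).

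The level of c3a.2 relative to c3a.3 was 1.04, 0.93 and 1.11 in the Lurasidone libraries, against 0.946, 0.979 and 1.23 in the control libraries, so the pair kept about the same ratio in both groups. The most abundant copy, c3a.1 (ENSDARG00000012694, 56130222 to 56176976, minus strand), was at 48.8, 55.5 and 61.8 FPKM with Lurasidone, against 30.1, 41.3 and 35.3 FPKM in the controls. Its groups did not overlap, and its 1.56-fold difference had a log2 fold change of 0.63 (95% interval 0.24 to 1.02) with a limma adjusted p of 0.051, just short of the threshold, and of 0.042 without control replicate 2. It passed under 5 of the 9 other alternatives. c3b.2 (ENSDARG00000001818, chromosome 22, 26129250 to 26175237, minus strand) was at 4.49, 5.63 and 5.14 FPKM with Lurasidone, against 1.78, 2.01 and 1.99 FPKM in the controls. This copy rose 2.64-fold (log2 fold change 1.05, SE 0.16, limma adjusted p = 0.0057), with tight values in both groups. Its neighbour c3b.1 overlapped between the groups, with 6.83 to 8.18 FPKM with Lurasidone and 6.58 to 7.81 FPKM in the controls, and a log2 fold change of 0.03 (-0.32 to 0.38). c3a.6 stood at 10.2 to 11.6 FPKM with Lurasidone and 7.17 to 10.8 FPKM in the controls (0.30, -0.09 to 0.70). The other copies were low, c3a.4 at or below 0.516 FPKM and c3a.5 at or below 0.153 FPKM in every library, and were not tested.

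The make-up of C3 expression therefore differed as well as its sum. All C3 genes together gave 94.6, 108 and 115 FPKM in the Lurasidone libraries, against 49.9, 68.8 and 58.0 FPKM in the control libraries. c3a.2 and c3a.3 made up 24.7, 26.03 and 25.5% of this sum with Lurasidone, against 7.83, 9.84 and 9.49% in the controls. The share of c3a.1 was 51.6, 51.4 and 53.7% with Lurasidone and 60.3, 60.1 and 60.8% in the controls. Neither share overlapped between the groups. The copies resemble each other in sequence, and how the counting treated reads that fit several copies is not given in the sources used here, so the split among copies is less certain than the sum.

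**Figure D2:**
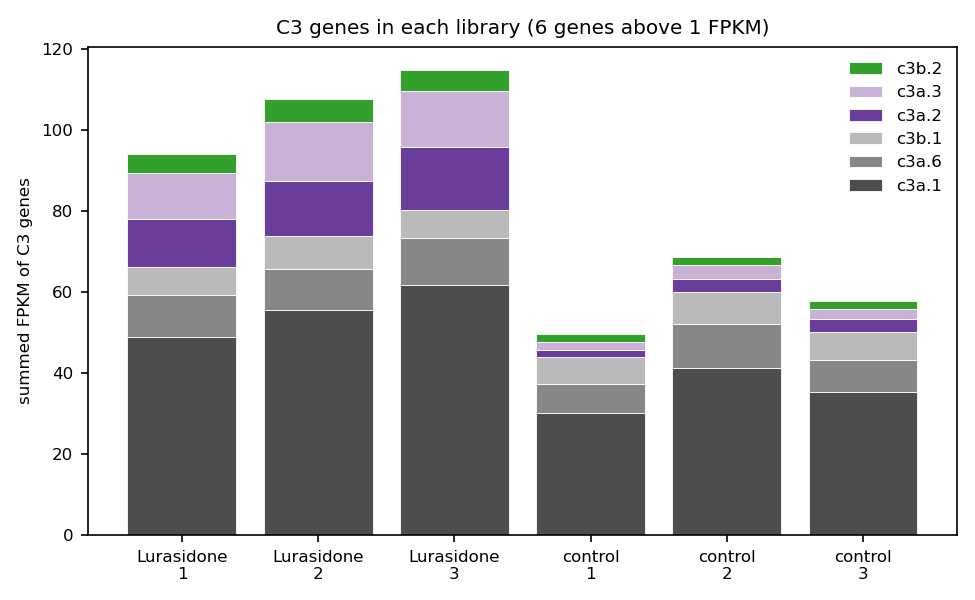
Stacked FPKM of the 6 C3 genes above 1 FPKM in each of the 3 Lurasidone and 3 control libraries. The Lurasidone libraries sum to 94.6 FPKM or more and the control libraries to 68.8 FPKM or less, and the segments of c3a.2 and c3a.3 are taller with Lurasidone.

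C4 carries the classical and lectin routes on to C3. The row c4 was low, at 0.752, 0.540 and 0.637 FPKM with Lurasidone, against 0.122, 0.320 and 0.194 FPKM in the controls. Its groups did not overlap, and the limma adjusted p was 0.14 (log2 fold change 0.44, 0.04 to 0.84). It shares 1943 bases with trim3a on the opposite strand, whose mean was 3.20 FPKM, and whether the counting used strand is not given in the sources used here. C5, whose cleavage starts the terminal pathway, showed no difference past the threshold, with c5 at 8.52 to 8.90 FPKM with Lurasidone, inside its control range of 6.79 to 10.96 FPKM (-0.06, -0.49 to 0.36).

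Within the membrane attack complex, both c6 rows and c7a rose, while the C8 genes did not pass the test. c7a (ENSDARG00000042172, chromosome 8, 31872992 to 31899329, plus strand), one of the C7 genes, was at 16.4, 18.4 and 17.9 FPKM in the Lurasidone libraries, against 7.45, 5.33 and 4.82 FPKM in the control libraries. The groups were well apart, at 17.6 ± 1.06 and 5.87 ± 1.40 FPKM (SD, n = 3 each), a 3.00-fold difference, or 1.45 on the log2 scale (SE 0.18, limma adjusted p = 0.0022). The other C7 gene, c7b on chromosome 21, was low and overlapped between groups, at 0.630, 0.343 and 0.202 FPKM with Lurasidone and 0.896, 0.326 and 0.659 FPKM in the controls (-0.22, -0.69 to 0.25).

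The first c6 row (ENSDARG00000093052, chromosome 21, 20795472 to 20840723, minus strand) was at 1.84, 2.01 and 1.53 FPKM with Lurasidone, against 0.173, 0.0852 and 0.390 FPKM in the controls. It had 74, 81 and 61 fragments with Lurasidone, against 8, 3 and 17 in the controls, near the lower end of detection. Pooled over libraries the ratio was 8.03 (95% interval 5.40 to 12.4, counting error only), and on the log2(FPKM + 1) scale the difference was 1.21 (SE 0.18, limma adjusted p = 0.0057). The second c6 row (ENSDARG00000057113, chromosome 21, 20914888 to 20932603, minus strand) was at 0.525, 0.729 and 1.00 FPKM with Lurasidone, against 0.0652, 0.0427 and 0.0173 FPKM in the controls. It had 28, 39 and 53 fragments with Lurasidone, against only 4, 2 and 1 in the controls, a pooled ratio of 17.8 (8.40 to 45.3). Its call was less firm, with a log2 fold change of 0.74 (SE 0.19), a limma adjusted p of 0.037, and 0.10, 0.085 and 0.059 without control replicate 1, 2 or 3. It also shares 404 bases with c7b on the opposite strand. Without a Lurasidone library neither c6 row passed the filter, so those fits gave no value.

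The 3 C8 chains lay slightly lower with Lurasidone, within the spread of the libraries. c8a, encoding the alpha chain, was at 13.6 to 16.7 FPKM with Lurasidone and 14.5 to 17.7 FPKM in the controls (-0.13, -0.48 to 0.22). c8b and c8g, for the beta and gamma chains, had log2 fold changes of -0.31 (-0.72 to 0.11) and -0.22 (-0.77 to 0.32). The whole of c8a lies within c8b on the opposite strand, so reads of these genes may not be fully separated. c9, whose product forms the pore and which was the most abundant complement member, was at 116, 99.0 and 105 FPKM with Lurasidone, against 89.2, 81.2 and 68.7 FPKM in the controls. Its groups did not overlap, and its 1.33-fold difference had a limma adjusted p of 0.14 (log2 fold change 0.42, 0.04 to 0.79).

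Factor B is the protease of the alternative route, which amplifies C3 cleavage, and factor H is its inhibitor. cfb (ENSDARG00000055278, chromosome 21, 27416284 to 27431397, plus strand) was at 9.17, 12.5 and 14.7 FPKM with Lurasidone, against 7.29, 4.41 and 6.82 FPKM in the controls. Each Lurasidone library exceeded each control library, and the 1.97-fold difference was 0.88 on the log2 scale (SE 0.22, limma adjusted p = 0.039). This call was lost without Lurasidone replicate 2 (adjusted p = 0.11), Lurasidone replicate 3 (0.13), control replicate 1 (0.077) or control replicate 2 (0.095), and without a filter on low values (0.085). cfh was at 10.3 to 12.7 FPKM with Lurasidone and 8.76 to 10.8 FPKM in the controls (0.26, -0.10 to 0.62). cfd, for factor D, which activates factor B, was listed at 0 in all 6 libraries.

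**Figure D3:**
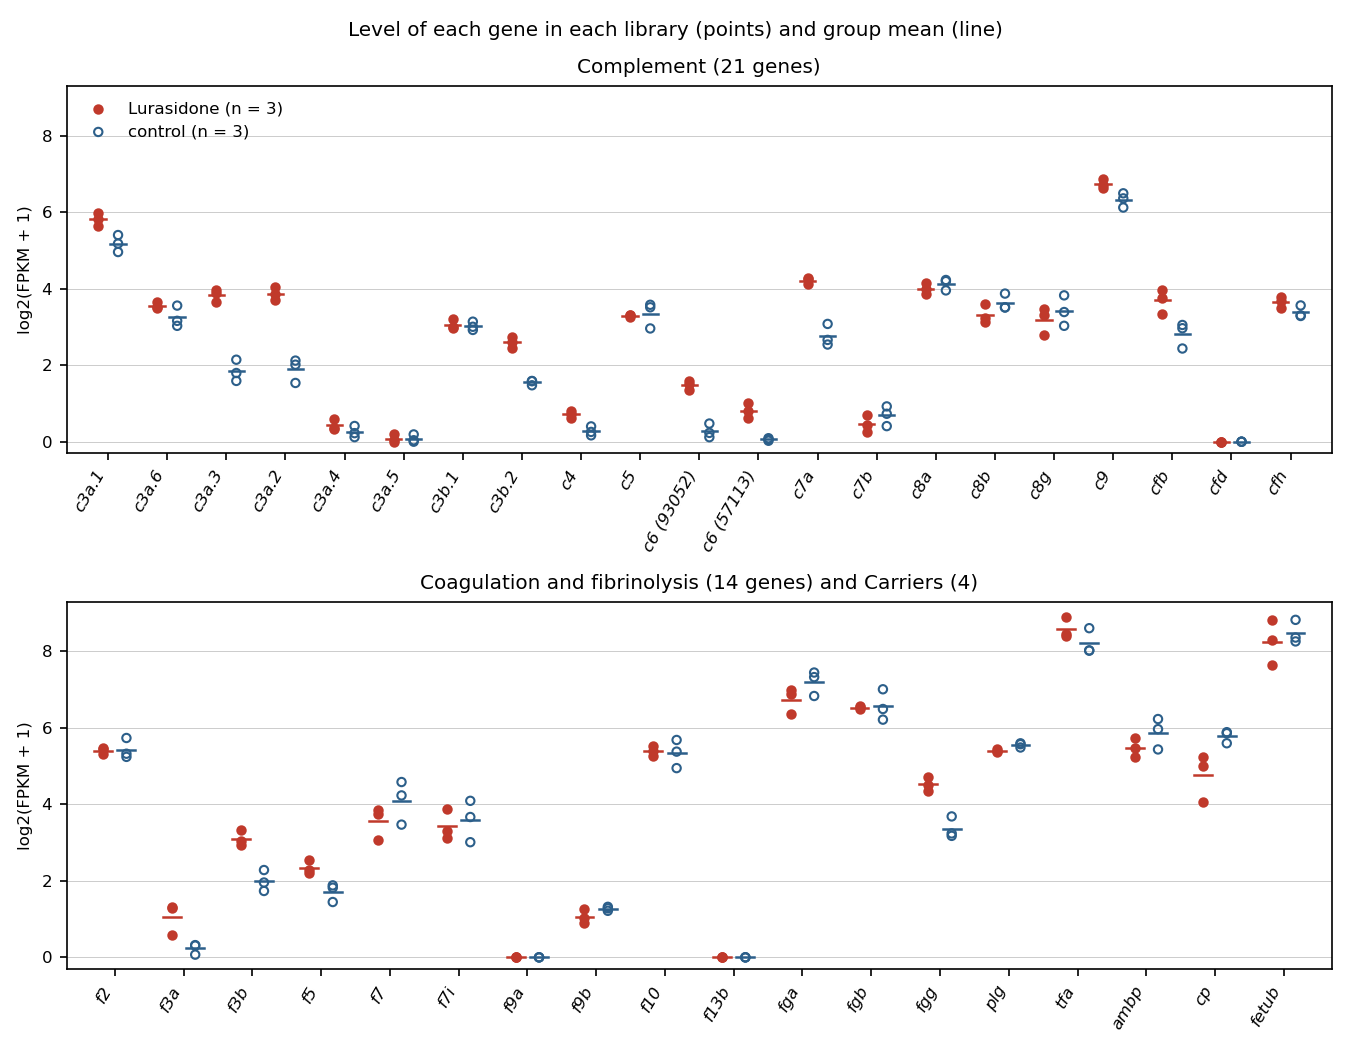
Level of every gene in every library as log2(FPKM + 1), Lurasidone and control as separate colours, with a line at each group mean, by class. The points of c3a.2, c3a.3, c6, c7a, f3b and fgg are clearly apart between the groups, and cfd, f9a and f13b lie at 0.

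Among coagulation genes, tissue factor and 1 fibrinogen chain rose and the clotting proteases did not pass the test. Tissue factor is the membrane protein that starts clotting when it meets factor VII. f3b (ENSDARG00000005673, chromosome 2, 15100742 to 15106968, plus strand), one of its genes, was at 9.02, 7.22 and 6.69 FPKM with Lurasidone, against 2.88, 2.33 and 3.87 FPKM in the controls. The groups did not overlap, and the 2.53-fold difference was 1.11 on the log2 scale (SE 0.19, limma adjusted p = 0.0094). f3b shares 4866 bases with CR392002.1 on the opposite strand, whose mean was 1.71 FPKM. Whether the counting used strand is not given in the sources used here, so reads of these genes may not be fully separated. The other tissue factor gene, f3a, failed the filter, with 27, 9 and 26 fragments in the Lurasidone libraries, against 5, 4 and 1 in the control libraries. Its pooled ratio was 6.45 (95% interval 3.28 to 14.1, counting error only).

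The proteases and cofactors downstream differed by less. f5, for the cofactor that makes factor Xa efficient, was at 3.58, 3.85 and 4.85 FPKM with Lurasidone, against 1.73, 2.69 and 2.53 FPKM in the controls, with separate groups and a limma adjusted p of 0.067 (log2 fold change 0.62, 0.20 to 1.05). f2, encoding prothrombin, was at 42.3, 38.8 and 43.1 FPKM with Lurasidone and 39.1, 52.3 and 36.8 FPKM in the controls. Its difference of -0.03 had an interval of -0.42 to 0.36, and the groups overlapped. f7, f7i and f10 lie next to each other on chromosome 1, between 119960 and 142469. f7, for the protease that tissue factor binds, had the largest decrease of the class, at 13.4, 7.46 and 12.4 FPKM with Lurasidone and 17.8, 23.0 and 10.1 FPKM in the controls, with overlapping groups (-0.54, -1.20 to 0.13, limma adjusted p = 0.26). The factor VII-like gene f7i had a log2 fold change of -0.16 (-0.80 to 0.49), and f10, for the protease that forms thrombin, one of 0.06 (-0.39 to 0.52). f9b, for factor IX, was low at 0.861 to 1.41 FPKM with Lurasidone and 1.32 to 1.499 FPKM in the controls (-0.21, -0.61 to 0.19), and f9a was listed at 0 in all libraries. Control replicate 2 was the highest library for 7 of the 11 tested coagulation genes and control replicate 3 the lowest for 4. Their fragments on genes were 104% and 84.5% of the FPKM denominator, the highest and lowest share of all libraries. The part of this scaling in the ranks was not tested.

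Fibrinogen is built from 3 chains, alpha, beta and gamma, encoded by fga, fgb and fgg. Only the gamma chain gene rose. fgg (ENSDARG00000037281, chromosome 1, 25669799 to 25679383, minus strand) was at 21.9, 25.2 and 19.4 FPKM with Lurasidone, against 8.04, 11.9 and 8.45 FPKM in the controls. Its groups did not overlap, at 22.2 ± 2.92 and 9.45 ± 2.096 FPKM (SD, n = 3 each), and the 2.34-fold difference was 1.16 on the log2 scale (SE 0.19, limma adjusted p = 0.0067). fga (chromosome 1, 10063501 to 10071539, minus strand), the most abundant of the class, was at 116, 80.8 and 126 FPKM with Lurasidone, against 159.6, 174 and 113 FPKM in the controls. Its groups overlapped (-0.46, -0.98 to 0.05, limma adjusted p = 0.22). fgb, which lies beside fga at 10051763 to 10059496, was at 91.7, 88.9 and 93.4 FPKM with Lurasidone and 89.1, 128 and 73.3 FPKM in the controls, also overlapping (-0.04, -0.51 to 0.43).

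The ratios between chains within a library set these genes against each other without the scaling of the libraries. The ratio of fgg to fga was 0.188, 0.312 and 0.154 with Lurasidone, against 0.0504, 0.0684 and 0.0748 in the controls. The ratio of fgg to fgb was 0.239, 0.284 and 0.207 with Lurasidone, against 0.0903, 0.0928 and 0.115 in the controls. In both ratios each Lurasidone library exceeded each control library, while fgg remained the least abundant chain in every library. The ratio of fgb to fga was also separate, by a narrow margin, though neither gene passed the test. It was at 0.741 or more with Lurasidone and at 0.737 or less in the controls. Separation of a ratio was thus not particular to fgg. f13b, for the carrier chain of the clot-stabilising factor XIII, was listed at 0 in all libraries. plg, for plasminogen, the precursor of plasmin, was at 42.3, 40.8 and 40.6 FPKM with Lurasidone, against 47.4, 43.9 and 46.6 FPKM in the controls. Its groups were separate by a small step, and the difference of -0.15 (-0.47 to 0.17) did not pass the test (limma adjusted p = 0.52).

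**Figure D4:**
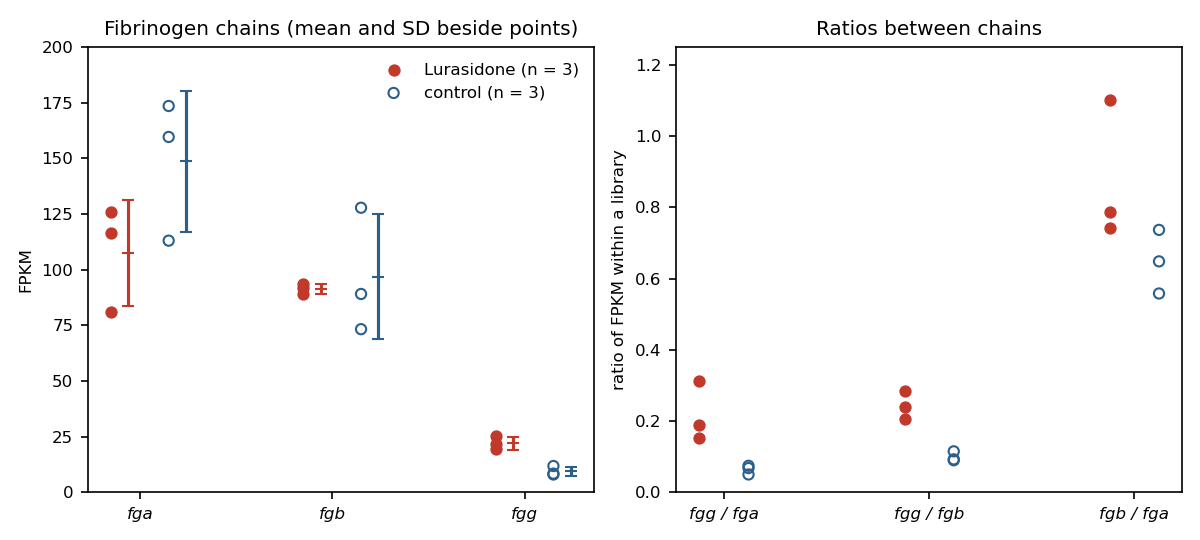
FPKM of fga, fgb and fgg in the Lurasidone and control libraries (points, with mean and SD beside them), and ratios between the chains within each library. The fgg values lie between 19.4 and 25.2 FPKM with Lurasidone and between 8.04 and 11.9 FPKM in the controls, while fga and fgb overlap between the groups.

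Of the carriers, ceruloplasmin fell and the others overlapped between the groups. cp (ENSDARG00000010312, chromosome 22, 38173960 to 38199988, plus strand), for this copper-carrying oxidase of iron, was at 31.0, 15.7 and 36.9 FPKM with Lurasidone, against 58.2, 57.1 and 47.4 FPKM in the controls. Lurasidone replicate 2 was the lowest, and every Lurasidone library lay below every control library. The mean was 0.514 of the control (27.9 ± 10.97 against 54.2 ± 5.92 FPKM, SD, n = 3 each), a log2 fold change of -1.01 (SE 0.28). The limma adjusted p of 0.0497 was at the edge of the threshold. It was 0.067 without Lurasidone replicate 1, 0.082 without Lurasidone replicate 2, where the log2 fold change was -0.66, and 0.15, 0.11 and 0.052 without control replicate 1, 2 or 3, and it also missed the threshold under 6 of the 9 other alternatives.

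tfa, for the iron carrier transferrin, had the highest mean of the class with Lurasidone (386 FPKM). In the controls fetub had the highest mean (362 FPKM, against 302 FPKM for tfa). tfa was at 348, 472 and 338 FPKM with Lurasidone, against 259.9, 389 and 258 FPKM in the controls. The groups overlapped (0.36, -0.16 to 0.88, limma adjusted p = 0.33). fetub, for the protease inhibitor fetuin B, varied widely, at 449, 200.1 and 313 FPKM with Lurasidone and 452, 306 and 328 FPKM in the controls (-0.23, -0.89 to 0.43). ambp, for a precursor that yields a small heme-binding carrier and a protease inhibitor, was at 36.4 to 51.9 FPKM with Lurasidone and 42.3 to 74.1 FPKM in the controls (-0.41, -0.91 to 0.10). The heme carrier hemopexin had no row under hpx, and the rows hpxa and hpxb, outside the rule and looked up after the other values were seen, had log2 fold changes of 0.17 (limma adjusted p = 0.70) and 1.02 (0.0076).

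Other genes of these cascades were taken from lists by role. Of 6 tested genes that start complement, 1 rose, c4b, a further C4 gene, at 4.79, 6.90 and 7.47 FPKM with Lurasidone and 1.67, 1.60 and 2.41 FPKM in the controls (3.38-fold, log2 fold change 1.35, limma adjusted p = 0.0053). Of 12 complement regulators and receptors, 1 rose, clu, for clusterin, a chaperone that also blocks the membrane attack complex. It was at 74.0, 66.2 and 83.7 FPKM with Lurasidone and 25.7, 27.3 and 20.95 FPKM in the controls, a 3.03-fold difference (limma adjusted p = 0.0014). Neither list held a gene that fell. Among the tested genes that start complement, all Lurasidone libraries lay above all controls in 2 and below them in 2, beside 17.1% and 16.2% of all genes. The lower ones were masp2 (log2 fold change -0.72, limma adjusted p = 0.072) and mbl2 (-0.56, 0.20). For the regulators and receptors the counts were 3 above and 1 below, serping1 (-0.62, limma adjusted p = 0.056). Among the 3 above, cfhl1 passed the filter on low values only through the Lurasidone libraries. It was at 0.781 FPKM or more with Lurasidone and 0.318 FPKM or less in the controls. The filter thus fixed its separation and direction in advance, and it is also counted in the median of its list. Of 16 further coagulation genes, 2 rose, f13a1b, for the catalytic chain of factor XIII (2.98-fold, limma adjusted p = 0.014), and the protease-activated receptor gene f2rl1.2 (2.42-fold, 0.0083). Of 6 tested fibrinolysis genes, 2 rose and 0 fell, with a median log2 fold change of 0.33, and this list was not tested as a whole. Among those that rose was serpinf2a, for the plasmin inhibitor antiplasmin (2.45-fold, limma adjusted p = 0.0053). The medians of the lists of complement initiation, complement regulators and receptors, and further coagulation genes were 0.07, 0.17 and 0.07 on the log2 scale. Over all genes tested 5.79% rose, and beside that share the counts of 1 of 6, 1 of 12 and 2 of 16 are too small to set these lists apart.

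A list of IL-6 family, JAK-STAT and C/EBP genes covered factors that act upstream of the acute-phase response in mammals. Of its 14 tested genes, 7 rose and 0 fell, with a median log2 fold change of 0.73, and the others did not pass the test. il6 itself failed the filter, with 0 fragments in each Lurasidone library and 0, 2 and 2 in the controls. il11a, for another cytokine of the family, was low and was among those that rose (limma adjusted p = 0.032). It was at 3.40, 1.81 and 2.52 FPKM with Lurasidone, against 1.08, 0 and 0.730 FPKM in the controls. socs3a, a feedback inhibitor induced by STAT3, was at 70.8, 58.5 and 53.0 FPKM with Lurasidone, against 7.12, 7.49 and 6.72 FPKM in the controls. This difference was 8.55-fold (limma adjusted p = 1.0e-04), and socs3b (2.62-fold, 0.003) and cebpd, for C/EBP delta (2.89-fold, 0.0056), rose with it. Of 11 liver transcription factor genes, 0 rose and 1 fell, a share near that of all genes (5.79% rose and 3.9% fell), namely foxa2, at 3.67, 3.87 and 4.56 FPKM with Lurasidone and 8.25, 5.91 and 7.34 FPKM in the controls (limma adjusted p = 0.036). Of 21 other secreted liver proteins, 5 rose and 1 fell. By adjusted p, the first increases were those of itih3b (4.30-fold, limma adjusted p = 0.0016) and itih3a (4.21-fold, 0.0022), for heavy chains of inter-alpha-trypsin inhibitor, and serpina1l, for an alpha-1-antitrypsin-like inhibitor (2.01-fold, 0.019). The remaining increases were those of ahsg1 (2.74-fold, limma adjusted p = 0.031) and ttr (2.01-fold, 0.037). The gene that fell, apoa1a, for the main HDL apolipoprotein, was at 0.306 of its control mean (0.0084). In the same list the hp row on chromosome 8 overlapped between the groups (log2 fold change 0.13, limma adjusted p = 0.75). saa, hamp and the hp row on chromosome 7 failed the filter. A part of the acute-phase response in the complement values was not tested.

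**Figure D5:**
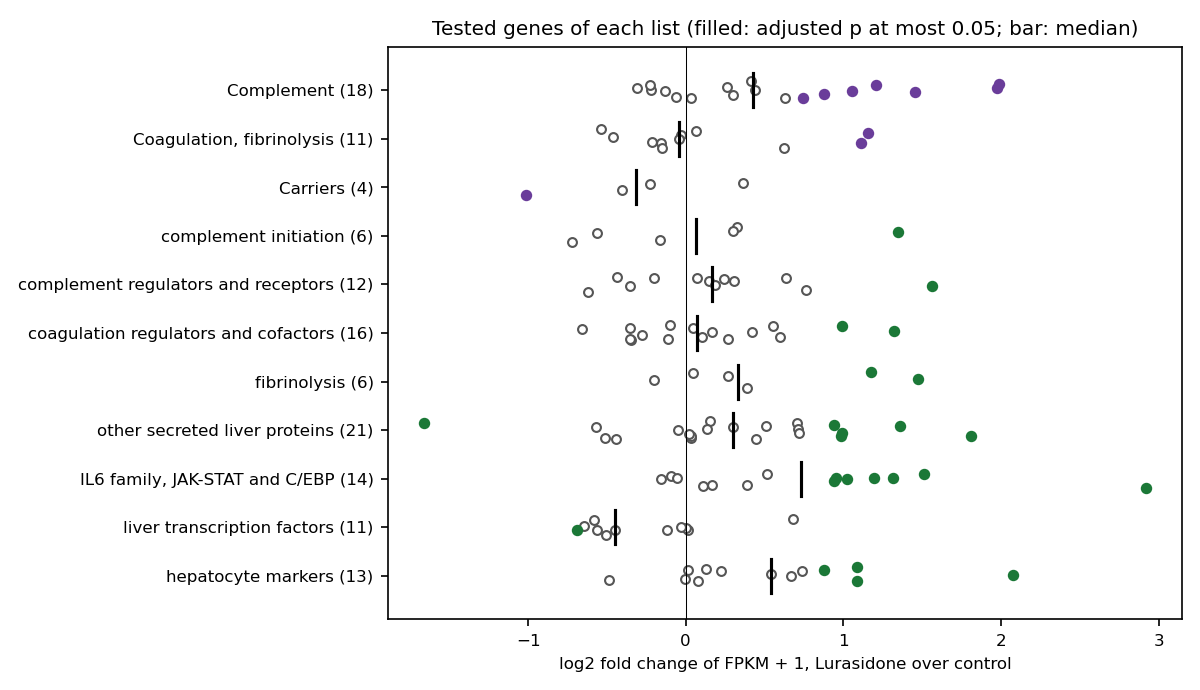
Log2 fold change of FPKM + 1, Lurasidone over control, of each tested gene in the member classes and the other lists (points, filled at an adjusted p of at most 0.05), with a bar at each list's median. The median is 0.43 for complement, 0.73 for the IL-6 family, JAK-STAT and C/EBP list and -0.45 for liver transcription factors.

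Hepatocytes are the main source of these proteins. Of 13 hepatocyte markers, 4 rose (uox, tdo2b, hpda and tat) and 0 fell, beside 5.79% and 3.9% of all genes tested. Their median log2 fold change was 0.54. Summed levels were 743 to 998 FPKM with Lurasidone and 512 to 680.3 FPKM in the controls, and none was at 0. The other 9 did not pass the test, among them cyp7a1, for the rate-limiting enzyme of bile acid synthesis, which was lower in every Lurasidone library than in every control library (log2 fold change -0.49). The part of this in the complement values was not tested. Macrophage markers summed to 12.7 to 15.3 FPKM with Lurasidone and 10.6 to 11.2 FPKM in the controls, with 0 of 4 past the threshold. Most of this sum was csf1ra, with means of 10.3 FPKM with Lurasidone and 7.71 FPKM in the controls. In 2 of these 4 every Lurasidone library exceeded every control. In 1, mfap4, every Lurasidone library lay below every control (log2 fold change -0.43, limma adjusted p = 0.14). Neutrophil markers summed to 28.3 to 48.1 FPKM with Lurasidone and 30.6 to 37.2 FPKM in the controls, with 1 of 5 (mmp9) higher. All Lurasidone libraries lay above all controls in 3 of these 5 and below them in 1, mpx (log2 fold change -0.54, limma adjusted p = 0.13). Over all genes tested, 17.1% were separate above and 16.2% below. Erythrocyte markers summed to 288 to 333 FPKM with Lurasidone and 501 to 702 FPKM in the controls, with 1 of 4 (hbbe1.1) lower. Most of this sum was hbbe1.1, with means of 213 FPKM with Lurasidone and 520 FPKM in the controls. The other tested markers, slc4a1a, epb41b and hbae1.1, had somewhat higher means with Lurasidone and overlapping groups. Endothelial markers, for cells that can also express coagulation genes, summed to 17.5 to 19.4 FPKM with Lurasidone and 22.5 to 24.4 FPKM in the controls, with 0 of 5 past the threshold, and thrombocyte markers to 2.97 to 3.56 FPKM with Lurasidone and 2.75 to 3.79 FPKM in the controls, with 0 of 2. Their part in the results was not tested either.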

How the data were processed

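Total RNA of larvae was sequenced in paired ends. The authors deposited FPKM values, fragments scaled by gene length and library size, for 39214 genes in 6 libraries, with gene length and position. The submitters' processing notes name GRCz11 (danRer11), and the aligner and counter are not given in the sources used here. The table held 0 columns of unknown samples.

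FPKM times gene length was a whole multiple of 1 constant per library for 100% of the values (tolerance 0.02), so fragments were read back. Genes were kept where 3 or more libraries reached 0.5 FPKM, which left 23409. Their log2(FPKM + 1) values were compared, Lurasidone minus control, in limma 3.58.1 (R 4.3.3; lmFit and trended eBayes) with Benjamini-Hochberg adjustment over all of them. The methods mention differentially expressed genes but do not describe how they were tested. Intervals are at 95%, and those on pooled fragments cover counting error only. With 3 libraries a group, an exact permutation test of 1 gene cannot give a p below 0.1. The scripts were tested on simulated data. Figures were drawn with matplotlib 3.10.9.

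Members and lists were chosen with earlier results of these data known. Values per library were given for members past an adjusted p of 0.05, for the most abundant member and the largest increase and decrease of each class, and for others whose groups did not overlap or that belong beside them. Of other lists, up to 3 genes per direction past 0.05 were named by adjusted p, and markers by summed FPKM. Some further genes of these lists were named beside them, among them genes that did not pass or were not tested. Not every gene so chosen is reported here. Alternatives, run for the members, were pseudocount 0.1, quantile normalization, median-ratio scaling, eBayes without the trend, all genes kept, a minimum of 5 FPKM, the replicate number as a block, voom on the fragments (1755 genes higher and 1185 lower over all), leaving out each library and, chosen after seeing the data, summed fragments as library size. Sequences of the genes were not analysed here.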

Additional observations from a re-analysis of the deposited data

How the results depend on the processing

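The calls of c3a.2, c3a.3, c3b.2, c7a, f3b and fgg held under every alternative in which the gene was tested. That of the first c6 row held where tested, but this row passed the filter only through the Lurasidone libraries. Fits that left out a Lurasidone library therefore could not test it. The calls of cfb, the second c6 row and cp did not hold throughout, and no member with a call turned its direction. Members that rose numbered 9 in the analysis reported, 7 to 13 under the other settings and 6 to 8 with 1 library left out, and with a log2 fold change of at least 1 they numbered 7, 5 to 10 and 5 to 7. The single member that fell, cp, became 0 with pseudocount 0.1, quantile normalization, median-ratio scaling, no variance trend, no filter or the replicate block, and 0 to 1 with 1 library left out, with or without the fold threshold, and with summed fragments as library size 0 passed both thresholds. Complement genes that rose numbered 4 to 6, against 7, with 1 library left out, and their median of 0.43 was 0.53 with a pseudocount of 0.1, 0.30 with the filter of 5 FPKM, 0.53 with voom and 0.25 to 0.50 with 1 library left out, where c4 and the c6 rows can leave the test. Coagulation genes that rose numbered 4 instead of 2 with voom (adding f3a and f5), and carrier genes 1 instead of 0 with quantile normalization (tfa, adjusted p = 0.043), which also moved the carrier median from -0.32 to -0.10.

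Deviations from the group means had correlations of 0.12, -0.10 and 0.0056 between same-numbered libraries. With 3 libraries a group, these values cannot show whether the replicate numbers pair the libraries. With the replicate block 7 members rose, the second c6 row and cfb being lost (limma adjusted p = 0.077 and 0.070) and cp too (0.079). Depth limits the c6 rows, c4 and f3a, which had few fragments in the controls. The 3 libraries of a group are biological replicates in the methods, and the source of the RNA within the larva is stated in 2 ways.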
